A study of Homo sapiens with 4 samples.

Results

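The genes described here fold proteins in the endoplasmic reticulum (ER), carry them out of it, or sense and relieve the accumulation of unfolded proteins there. They are 36 genes taken by symbol from an expression table of 23577 genes, and all 36 were present. The table covers 4 established human leiomyosarcoma lines, SKUT1, SKN, SKLMS1 and RKN, which derive from malignant tumours of the smooth muscle lineage. All were untreated cultures in the same medium, DMEM with 10% FBS, and each gave 1 poly(A) RNA-seq library, so every line is its own group and no difference has a replicate check or a test. Values are the authors' FPKM, the fragments of a gene scaled for its length and for the depth of the library. Differences were taken as log2(FPKM + 1), a scale that makes those of low genes look smaller, and each sets a line against the average of the rest. All 36 genes reached an FPKM of 1 in at least 1 line, as did 13713 genes of the table, which form the background. ERN1 passed that limit through SKUT1 and SKN only.

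Proteins bound for the cell surface or for secretion enter the ER through the SEC61 channel, are folded by chaperones and thiol oxidoreductases, and leave in COPII-coated vesicles. When unfolded proteins build up, the sensors IRE1, PERK and ATF6 start the unfolded protein response. IRE1 splices the mRNA of the transcription factor XBP1 and ATF6 is released as a transcription factor, and both raise chaperone and degradation genes. PERK slows translation and favours the factor ATF4, which raises DDIT3 (CHOP) and genes of amino acid supply and stress. Cells that secrete much matrix carry a large folding apparatus. The table gives 1 value per gene, so spliced and unspliced XBP1 mRNA and any control by translation or cleavage are not seen in it.

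The lines kept smooth muscle markers to unequal degrees. A bulk library cannot tell fewer cells of a type from less RNA per cell. Of 10 smooth muscle markers, 9 had an FPKM of 1 or more in SKUT1, 6 in SKN, 8 in SKLMS1 and 8 in RKN, with sums of 9317, 531, 3064 and 769 in that order. DES, the desmin gene, was at most 1.10 and MYH11, smooth muscle myosin, at most 1.15 in any line, and the smooth muscle actin gene ACTA2 was 1.37 in SKN. Most of the SKN sum came from TPM2 (393), while TAGLN was 5.82, CNN1 0.228 and LMOD1 0.0523 there. Fibroblast markers numbered 6 of 6 in SKUT1, 0 in SKN, 3 in SKLMS1 and 3 in RKN, with sums of 2149, 0.301, 112 and 49.4. The 8 epithelial markers summed to 290 in SKUT1, 549.6 in SKN, 461 in SKLMS1 and 55.7 in RKN, mostly from keratin genes, with EPCAM at most 1.80. Endothelial markers summed to 47.2 in SKUT1, carried by TEK and ERG, and to at most 5.08 elsewhere, and blood markers to at most 1.95 in any line. Of 5 plasma cell markers SDC1 alone reached an FPKM of 1, at 8.57 to 42.0. The part of these differences in the results below was not tested. Estimated depths were 24400000 to 33600000 reads per library, at which 1 read on a 2 kb transcript was worth an FPKM of 0.0149 to 0.0205.

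SKUT1 carried the highest levels of most of the folding apparatus, and RKN the lowest. SKUT1 was the highest line for 29 of the 36 genes (30.8% of all 13713 genes), and RKN the lowest for 23 (26.7%), with SKLMS1 lowest for 9 (20.8%), SKN for 4 (20.9%) and SKUT1 for 0 (27.9%). SKN was highest for 4 (21.1%), SKLMS1 for 2 (19.7%) and RKN for 1 (28.4%). In SKUT1, 20 genes stood 2-fold or more above the average of the rest (17.9% of all genes) and 0 stood as far below (13.1%). The median difference of the 36 genes in SKUT1 was 1.09, against -0.03 for all genes. In RKN, 11 genes stood 2-fold or more below the rest (16.6%) and 2 above, CREB3L1 and RCN3 (11.6%), with a median of -0.85 against -0.04 for all genes. SKN and SKLMS1 lay between them, with medians of 0.05 and -0.20 and at most 3 genes on either side. Fibroblast and smooth muscle markers were also highest in SKUT1, with the sums given above, and their part in these counts was not tested. Since the 36 genes are mostly well expressed, they were also set against genes reaching an FPKM of 10, where 20 of 35 members stood above the rest in SKUT1 (21.1% of such genes) and 11 of 35 below in RKN (20.3%).

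The sizes of the SKUT1 excess and of the RKN deficit depended on how the columns were scaled. The columns summed to 619584 in SKUT1, 538300 in SKN, 494047 in SKLMS1 and 446954 in RKN. Rescaling them to a common sum, as TPM, moved the median of all genes to -0.31 in SKUT1 and to 0.24 in RKN. On that scale 12 of the 36 genes stood 2-fold or more above the rest in SKUT1 (15.0% of all genes) and 0 below (22.9%), and 7 stood below in RKN (15.5%) and 2 above (20.5%). The 12 were HSP90B1, CALR, CRELD2, P4HB, TXNDC5, CREB3L1, SEL1L, RCN1, RCN3, CALU, SEC61A1 and SEC24D. CREB3L1 was listed at 0 in SKN, and its place among the 12 rested on that 0. The 7 were PDIA3, P4HB, XBP1, CREB3L2, SEL1L, CALU and SEC24D. They made up 19.4% of the 36 genes, close to the 15.5% of all genes. The median of the 36 genes in RKN was -0.56 on that scale, against 0.24 for all genes. On the same scale SKUT1 was the highest line for 27 of the genes (21.9%) and RKN the lowest for 21 (19.6%). No gene at least 2-fold apart changed its sign on the TPM, quantile or median-of-ratios scales. As a share of the summed FPKM, which does not depend on the column total, the 36 genes took 1.51% in SKUT1, 0.813% in SKN, 0.833% in SKLMS1 and 0.624% in RKN.

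**Figure D1:**
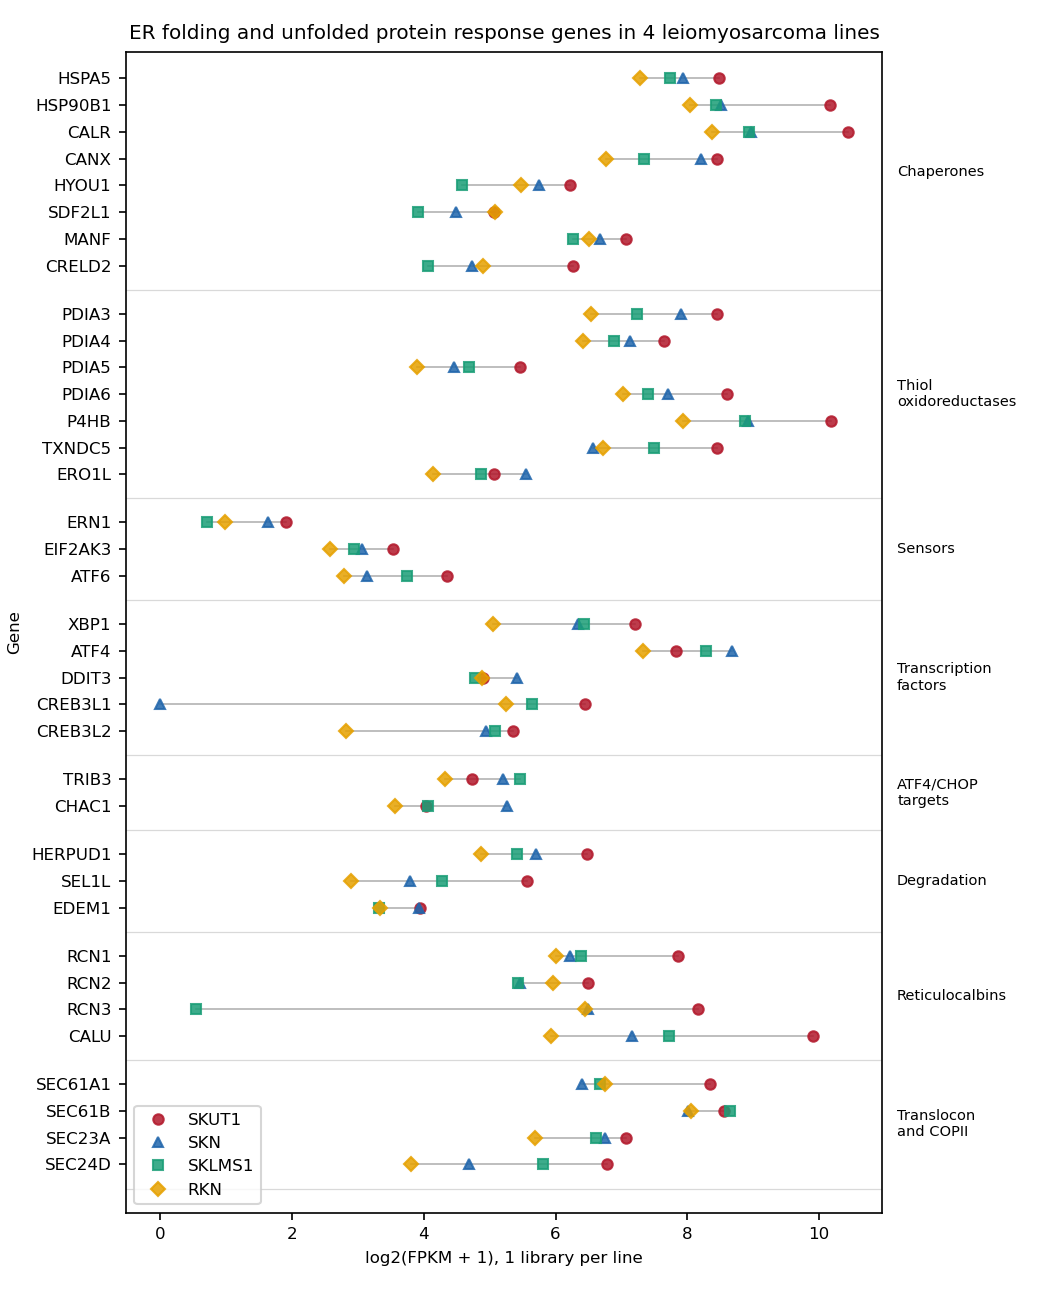
Levels of the 36 genes as log2(FPKM + 1) in SKUT1, SKN, SKLMS1 and RKN, 1 library per line, grouped by role, with a grey line from the lowest to the highest line. SKUT1 is the rightmost point for 29 genes, and the longest lines belong to RCN3 (7.62) and CREB3L1 (6.45).

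Except for MANF, the promoters of the 8 chaperones and partners held a match to an element through which the unfolded protein response is known to act. The sequences are shown before the levels. RefSeq promoter windows of 300 bases (250 before to 50 after the annotated start, build GRCh38.p14) were found for 34 of the 36 genes, in 47 windows. PDIA3 and SEC24D had none. The ER stress response element consists of CCAAT and CCACG with 9 free bases between them, and is bound by the factor NF-Y at its first end and by ATF6 or XBP1 at the other. It was searched on both strands and was present in 0.0769% of all 35116 windows. Among the 36 genes 7 had it: HSPA5, HSP90B1, CALR, CANX, CRELD2, PDIA6 and XBP1. The matches are printed 5′ to 3′ in the direction of the element, with both ends in capitals and the spacer in lower case.
HSPA5 (chr9:125241391-125241409, minus strand): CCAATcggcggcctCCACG
HSP90B1, upstream copy (chr12:103930216-103930234, plus strand): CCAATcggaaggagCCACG
HSP90B1, downstream copy (chr12:103930321-103930339, minus strand): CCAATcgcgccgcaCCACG
CALR (chr19:12938384-12938402, minus strand): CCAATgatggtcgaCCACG
CANX (chr5:179698778-179698796, plus strand): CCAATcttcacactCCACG
CRELD2 (chr22:49918554-49918572, minus strand): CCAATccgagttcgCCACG
PDIA6 (chr2:10812853-10812871, minus strand): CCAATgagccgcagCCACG
XBP1 (chr22:28800603-28800621, minus strand): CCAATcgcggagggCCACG

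A shorter form of the element, ATTGG and CCACG with 1 free base between them, was present in 0.0541% of all windows and in the windows of HYOU1, SDF2L1 and HERPUD1. The HSPA5 window (chr9:125241294-125241593, minus strand), with its longer element in capitals, is printed in the direction of the gene, as the classical promoter of this response. HYOU1 held the shorter form at 2 places, both on the strand opposite to the gene. The HYOU1 window (chr11:119057156-119057455, minus strand) is printed in the direction of the gene, with both matches in capitals apart from the free base between their ends.
HSPA5: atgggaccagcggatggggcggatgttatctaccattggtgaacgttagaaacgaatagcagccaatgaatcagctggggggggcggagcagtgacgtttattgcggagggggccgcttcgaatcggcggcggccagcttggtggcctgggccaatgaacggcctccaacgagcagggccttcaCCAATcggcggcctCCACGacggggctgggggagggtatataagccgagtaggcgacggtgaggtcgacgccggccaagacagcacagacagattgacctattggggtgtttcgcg
HYOU1: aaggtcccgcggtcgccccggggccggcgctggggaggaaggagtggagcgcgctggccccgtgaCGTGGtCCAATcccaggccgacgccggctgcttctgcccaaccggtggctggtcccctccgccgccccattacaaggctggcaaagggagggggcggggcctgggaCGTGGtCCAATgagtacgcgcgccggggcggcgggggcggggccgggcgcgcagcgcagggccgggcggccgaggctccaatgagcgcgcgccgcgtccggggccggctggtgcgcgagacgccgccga

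Of the 10 genes with either form of the element, 7 stood 2-fold or more above the rest in SKUT1 (17.9% of all genes), with differences of median 1.18 and of range 0.57 to 1.84. Of the 24 genes whose windows held neither form, 11 did, with a median of 0.86 and a range of -0.27 to 3.67. On the TPM and quantile scales HSP90B1, CALR and CRELD2 alone of the genes with an element stayed as far above. Of those with neither, P4HB, TXNDC5, CREB3L1, SEL1L, RCN1, RCN3, CALU and SEC61A1 did, CREB3L1 with its listed 0 in SKN counted. The larger share of the genes with an element was thus not kept on those scales. Genes of the whole table that passed the expression limit were also counted, members included. Of these, 7 of 15 with the longer form and 3 of 13 with the shorter form were as far above the rest in SKUT1. As far below were 0 and 2 (13.1% of all genes). The 7 include the members HSP90B1, CALR, CANX, CRELD2, PDIA6 and XBP1, and the 3 include HERPUD1. These counts thus mostly repeat those of the members. TGACGTGG, a core to which XBP1 and ATF6 can bind, was present in 0.729% of all windows and in those of HYOU1, TXNDC5 and SEC23A, and the HYOU1 match overlapped the upstream copy of its shorter element. These matches describe letters in a window and are not evidence of binding in these lines.

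Among the chaperones, HSP90B1, CRELD2 and CALR had the largest differences in SKUT1, of 1.84, 1.71 and 1.68. CALR, the calcium-binding lectin chaperone calreticulin, had an FPKM of 1383 in SKUT1, 499.5 in SKN, 489 in SKLMS1 and 329 in RKN. HSP90B1, the ER member of the HSP90 family, was 1154 in SKUT1, 362 in SKN, 347 in SKLMS1 and 264 in RKN. For both genes SKN and SKLMS1 were nearly level, SKUT1 stood apart above them (3.19-fold over SKN for HSP90B1 and 2.77-fold for CALR), and RKN lay below. In SKUT1 CALR was the gene of rank 47 and HSP90B1 that of rank 66 in the whole table.

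HSPA5, the HSP70 of the ER (BiP) and the usual gauge of ER stress, differed less. It was 357 in SKUT1, 243 in SKN, 212 in SKLMS1 and 155 in RKN, with 2.31-fold between the ends. The ratio of HSP90B1 to HSPA5 within a library, which multiplying a column cannot change, was 3.23 in SKUT1, 1.49 in SKN, 1.64 in SKLMS1 and 1.71 in RKN. CANX, the membrane-bound relative of calreticulin, was 347 in SKUT1 and 294 in SKN, with 161 in SKLMS1 and 107 in RKN, so that SKUT1 and SKN were close for this gene. HSP90B2P, a pseudogene of HSP90B1, was listed at 8.71 to 37.8, so the division of reads between such copies is uncertain.

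HYOU1, CRELD2, SDF2L1 and MANF ordered the lines another way, with SKLMS1 and not RKN the lowest. HYOU1, a large HSP70 relative that exchanges nucleotide on BiP, was 73.7 in SKUT1, 53.0 in SKN, 22.9 in SKLMS1 and 43.5 in RKN. CRELD2, an ER stress-inducible secreted protein, was 76.2 in SKUT1, 25.5 in SKN, 15.6 in SKLMS1 and 28.7 in RKN. These 2 genes and RCN3 were the 3 that lay at least 2-fold below the other lines in SKLMS1 (9.83% of all genes). SDF2L1, which works with the ER J-domain cochaperones, was 32.5 in SKUT1, 21.5 in SKN, 14.0 in SKLMS1 and 32.8 in RKN, the only gene of the 36 for which RKN was highest, by a margin of 1.01-fold. MANF, an ER-resident and secreted survival factor, varied little, with 133 in SKUT1, 101 in SKN, 75.8 in SKLMS1 and 90.4 in RKN.

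The protein disulfide isomerases were ordered much as the main chaperones. P4HB, which makes and reshuffles disulfide bonds and is also the beta subunit of collagen prolyl 4-hydroxylase, was 1160 in SKUT1, 483 in SKN, 471 in SKLMS1 and 242.5 in RKN. Its difference from the rest was 1.60 in SKUT1 and -1.40 in RKN, so it stood apart at both ends. PDIA6 was 386 in SKUT1, 209 in SKN, 168 in SKLMS1 and 130 in RKN, and PDIA4 was 200.4, 139, 118 and 84.6 in the same order. PDIA3, which serves the calnexin and calreticulin cycle, was 347 in SKUT1, 239 in SKN, 150 in SKLMS1 and 92.4 in RKN. Its processed pseudogene PDIA3P was listed at 166, 121, 73.9 and 47.8 in that order, so its level is uncertain.

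PDIA5 and TXNDC5 separated SKN from SKLMS1 differently. TXNDC5, an isomerase with several thioredoxin-type domains, was 350.2 in SKUT1, 94.2 in SKN, 179 in SKLMS1 and 104 in RKN, with SKN the lowest line. A read-through transcript that shares its exons, BLOC1S5-TXNDC5, was listed separately at 2.29 to 19.0, so the division of reads is uncertain. PDIA5 was 43.0 in SKUT1, 20.9 in SKN, 24.8 in SKLMS1 and 13.9 in RKN. ERO1L (ERO1A), the oxidase that recharges the isomerases, was the oxidoreductase for which SKUT1 was not the highest line, with 32.6 in SKUT1, 45.8 in SKN, 28.2 in SKLMS1 and 16.6 in RKN. The ratio of P4HB to ERO1L was 35.5 in SKUT1, 10.5 in SKN, 16.7 in SKLMS1 and 14.6 in RKN.

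**Figure D2:**
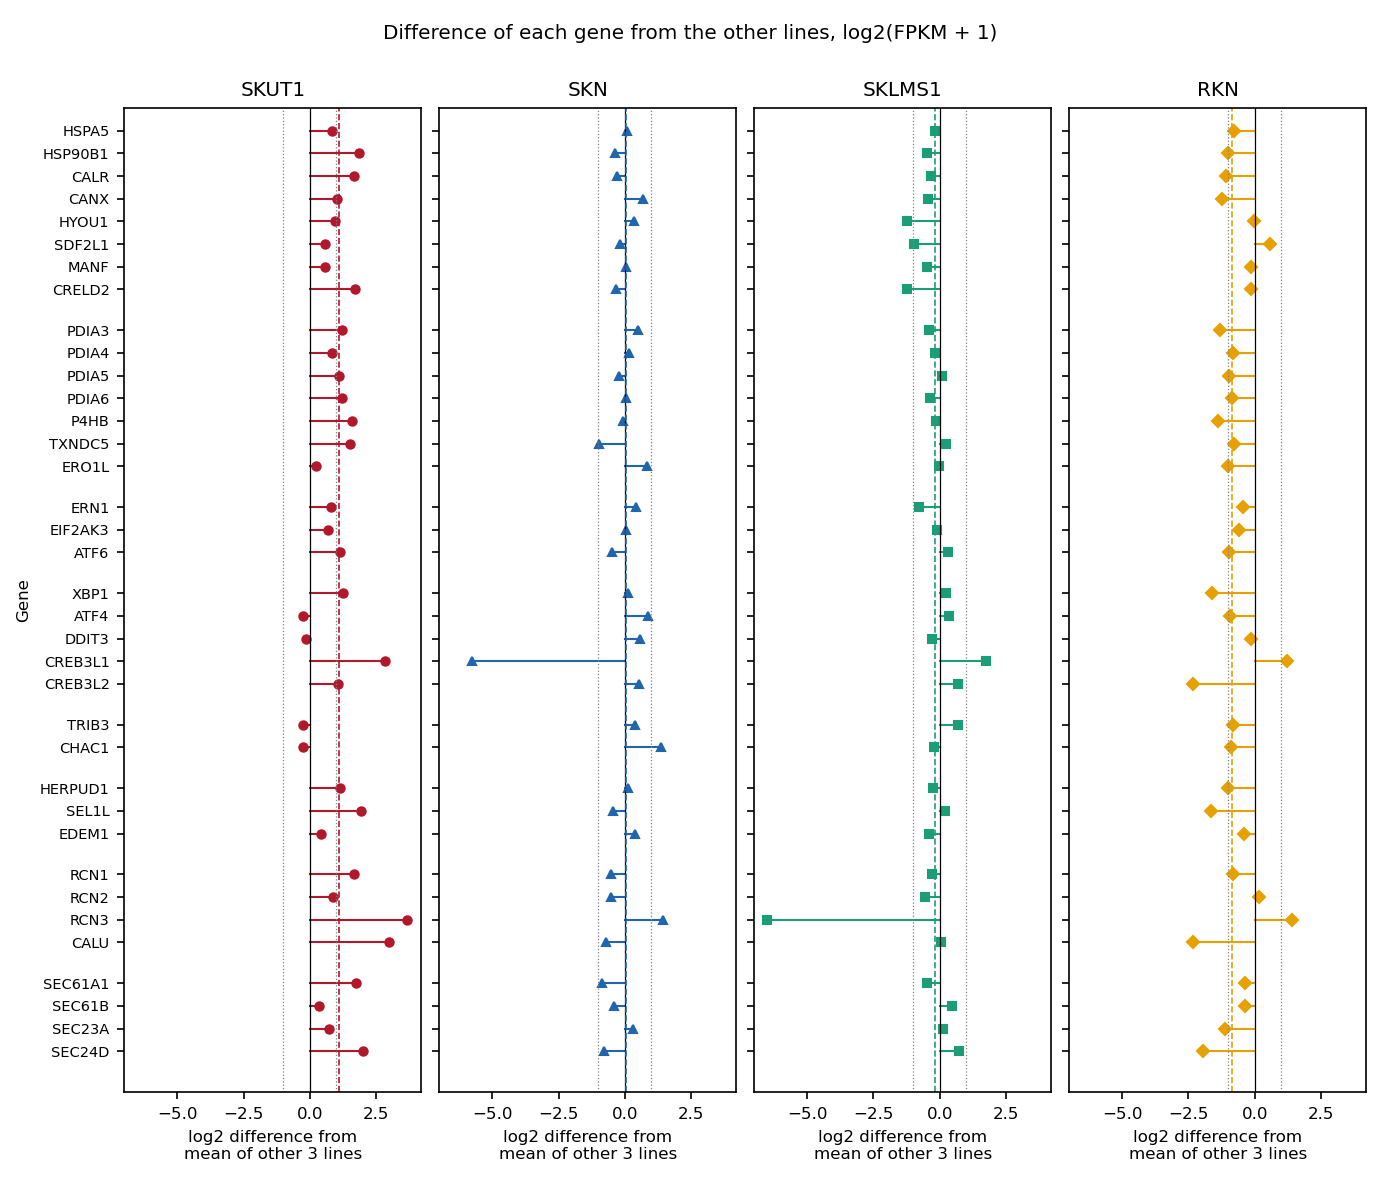
Difference of each gene in a line from the mean of the other 3 lines on the log2(FPKM + 1) scale, 1 panel per line, with dotted lines at 2-fold either way and a dashed line at the median of the 36 genes. The median is 1.09 in SKUT1, 0.05 in SKN, -0.20 in SKLMS1 and -0.85 in RKN, and ATF4, DDIT3, TRIB3 and CHAC1 are the 4 genes below 0 in SKUT1.

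All 3 sensor genes were highest in SKUT1, and ERN1 was low in every line. ATF6 was 19.3 in SKUT1, 7.80 in SKN, 12.4 in SKLMS1 and 5.89 in RKN. EIF2AK3, which encodes PERK, was 10.6 in SKUT1, 7.35 in SKN, 6.68 in SKLMS1 and 4.93 in RKN. ERN1, which encodes IRE1, was 2.74 in SKUT1, 2.09 in SKN, 0.640 in SKLMS1 and 0.974 in RKN. ATF6 was the sensor at least 2-fold above the other lines in SKUT1 (difference 1.12).

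The transcription factors fell into 2 patterns. XBP1 followed the chaperones, at 146 in SKUT1, 80.2 in SKN, 85.0 in SKLMS1 and 32.1 in RKN. ATF4 was 227 in SKUT1, 408 in SKN, 312 in SKLMS1 and 159 in RKN, and DDIT3, the gene of CHOP, was 28.7 in SKUT1, 41.5 in SKN, 26.5 in SKLMS1 and 28.4 in RKN. SKN was the highest line for both. SKUT1 came after SKN and SKLMS1 for ATF4 and lay close to RKN and SKLMS1 for DDIT3. DDIT3 shares exon sequence with MARS on the opposite strand (66.7 to 97.5), and the strand setting of the quantification is not given in the sources used here, so its level is uncertain.

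TRIB3 and CHAC1, which lie downstream of ATF4 and CHOP, followed ATF4 rather than XBP1 in having their highest level outside SKUT1. TRIB3, a pseudokinase, was 25.7 in SKUT1, 35.9 in SKN, 42.9 in SKLMS1 and 18.9 in RKN. CHAC1, which degrades glutathione, was 15.3 in SKUT1, 37.3 in SKN, 15.7 in SKLMS1 and 10.8 in RKN. In SKN it stood 1.38 above the rest, one of 2 genes 2-fold or more higher there (9.97% of all genes), the other being RCN3. ATF4, DDIT3, TRIB3 and CHAC1 were the 4 of the 36 genes that lay below the other lines in SKUT1, by differences of -0.27, -0.13, -0.25 and -0.27, each short of 2-fold.

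The CHAC1 window held the letters of a composite element for C/EBP and ATF factors, TGATGNAA, which were present in 3.62% of all windows and among the 36 genes also in those of CREB3L2 and HERPUD1. The CHAC1 window (chr15:40953221-40953520, plus strand) is printed in the direction of the gene, with the fixed bases of the match, which lies on the opposite strand, in capitals.
CHAC1: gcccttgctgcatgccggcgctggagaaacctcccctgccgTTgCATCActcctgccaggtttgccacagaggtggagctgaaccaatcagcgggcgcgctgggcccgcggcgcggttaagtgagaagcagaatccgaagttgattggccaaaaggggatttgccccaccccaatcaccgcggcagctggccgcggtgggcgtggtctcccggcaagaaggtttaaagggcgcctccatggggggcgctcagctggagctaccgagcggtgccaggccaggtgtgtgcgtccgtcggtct

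The levels of the chaperones and of the 4 genes that were not higher in SKUT1 can be set against each other within a library, where the column scale cancels. The 8 chaperones and partners summed to an FPKM of 3557 in SKUT1, 1600 in SKN, 1337 in SKLMS1 and 1050.4 in RKN. ATF4, DDIT3, TRIB3 and CHAC1 summed to 296 in SKUT1, 523 in SKN, 398 in SKLMS1 and 217 in RKN. The ratio of the sums was 12.0 in SKUT1, 3.06 in SKN, 3.36 in SKLMS1 and 4.84 in RKN. CALR (1383) and HSP90B1 (1154) made up most of the chaperone sum in SKUT1. For single genes, the ratio of HSPA5 to ATF4 was 1.57 in SKUT1, 0.595 in SKN, 0.678 in SKLMS1 and 0.972 in RKN. RKN was thus low in both sums and had the second highest ratio. The 4 genes were grouped with their values known, and ATF4 makes up most of their sum. They do not stand for the targets of ATF4 at large. Of 29 other targets 15 stood 2-fold or more higher in SKUT1 (17.9% of all genes) and 1 lower (13.1%).

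**Figure D3:**
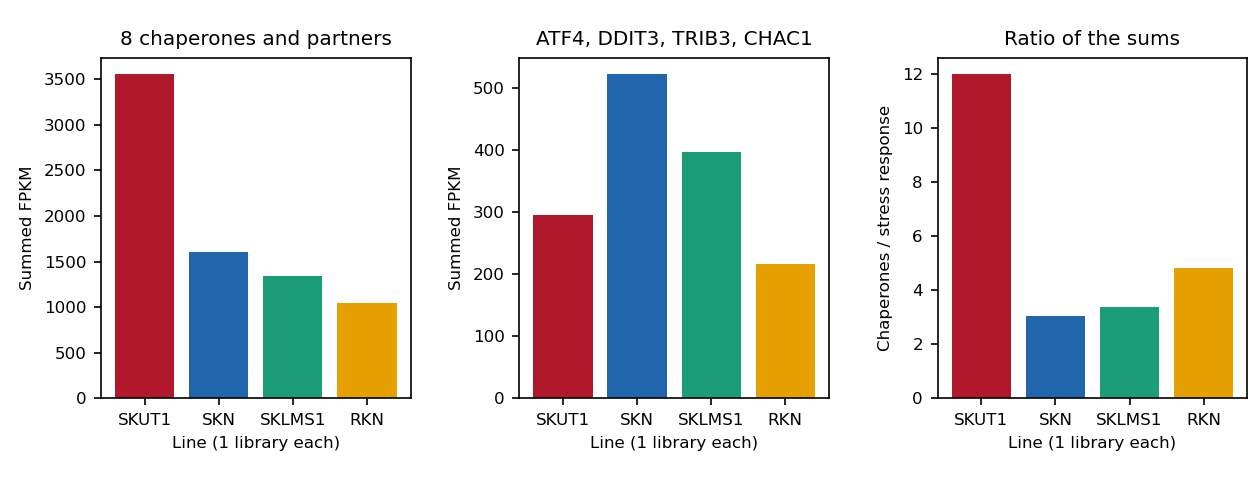
Summed FPKM of the 8 chaperones and partners (left) and of ATF4, DDIT3, TRIB3 and CHAC1 (middle), and the ratio of the sums (right), as bars from 0 for SKUT1, SKN, SKLMS1 and RKN, 1 library each. SKUT1 has the tallest bar for the chaperones (3557) and SKN for the other 4 genes (523), and the ratio is 12.0 in SKUT1 and at most 4.84 elsewhere.

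CREB3L1 and CREB3L2 are relatives of ATF6 that are cleaved on leaving the ER and are known for their part in the secretory pathway, including that of bone and cartilage matrix. CREB3L1 was 86.6 in SKUT1, listed at 0 in SKN, 48.8 in SKLMS1 and 36.8 in RKN. An exact 0 can be a failed estimate, and RPS28, which encodes a core part of every ribosome, was itself listed at 0 in SKUT1, so no fold is given for CREB3L1 in SKN. It was the gene of the 36 at least 4-fold below every other line in SKN (0.583% of all genes), and the only one 2-fold or more below the average of the rest there (10.8%). The value of 0 alone placed CREB3L1 2-fold or more above the rest in RKN and SKLMS1 (the only such gene in SKLMS1, 10.7% of all genes), and leaving SKN out turned these differences to -0.804 and -0.21. The SKUT1 difference of 2.83 took in the same 0. By FPKM, SKUT1 was 1.77-fold over SKLMS1 and 2.35-fold over RKN. By TPM it was 139.8, against 98.8 in SKLMS1 and 82.4 in RKN, less than 2-fold over either. The SKUT1 call on the TPM scale thus rested on the 0 in SKN. The neighbouring genes DGKZ (8.04), MDK (61.1) and PHF21A (5.95), looked up after the value was seen, were not at 0 in SKN. CREB3L2 was 39.8 in SKUT1, 29.9 in SKN, 32.7 in SKLMS1 and 6.03 in RKN, and was the gene of the 36 that lay at least 4-fold below every other line in RKN (1.65% of all genes). Taken as log2(TPM + 1) it fell just short of that limit, with a TPM of 13.5 in RKN, 64.2 in SKUT1, 55.5 in SKN and 66.1 in SKLMS1, and the call also ended with a pseudocount of 5.

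The genes of ER-associated degradation, which returns misfolded proteins to the cytosol, differed in the width of their range. SEL1L, the adaptor of the HRD1 ubiquitin ligase, was 46.6 in SKUT1, 12.9 in SKN, 18.3 in SKLMS1 and 6.46 in RKN, a 7.21-fold span. HERPUD1, a stress-inducible ligase partner, was 88.2 in SKUT1, 51.2 in SKN, 41.5 in SKLMS1 and 28.2 in RKN. EDEM1, which draws misfolded glycoproteins into degradation, had the narrowest range of the 36 genes on the log2(FPKM + 1) scale (0.62), though by fold (1.60) it was wider than DDIT3 and SEC61B (1.57 each), with 14.4 in SKUT1, 14.1 in SKN, 9.00 in SKLMS1 and 9.11 in RKN.

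The reticulocalbins, calcium-binding proteins of the secretory pathway, were all highest in SKUT1 but differed in the width of their range, from 1.06 for RCN2 and 1.85 for RCN1 to 3.98 for CALU and 7.62 for RCN3 on the log2(FPKM + 1) scale. CALU, calumenin, was 965 in SKUT1, 141 in SKN, 209 in SKLMS1 and 60.0 in RKN, a 16.1-fold span, and was the gene of the 36 that lay at least 4-fold above every other line in SKUT1 (4.06% of all genes). On the TPM and quantile scales it no longer was, with a TPM of 1558 in SKUT1, 263 in SKN, 423 in SKLMS1 and 134 in RKN. RCN1 was 232 in SKUT1, 73.7 in SKN, 83.0 in SKLMS1 and 63.3 in RKN, so that the other lines were close together. RCN2 was 88.9 in SKUT1, 42.9 in SKN, 42.0 in SKLMS1 and 61.3 in RKN. As a share of summed FPKM the 4 genes of the family took 0.254% in SKUT1, 0.0645% in SKN, 0.0677% in SKLMS1 and 0.0607% in RKN.

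RCN3, a reticulocalbin needed for lung maturation in mice, was 0.453 in SKLMS1, against 285 in SKUT1, 89.0 in SKN and 86.5 in RKN. SKLMS1 was lowest by 191-fold against RKN, the nearest line, and RCN3 was the gene of the 36 at least 4-fold below every other line there (0.306% of all genes). The differences of RCN3 in SKN (1.44) and RKN (1.39) rested on that value and became -0.81 and -0.875 without SKLMS1. Its neighbours were looked up after the value was seen. FCGRT was 3.75 in SKLMS1, against 45.0 in SKUT1, 2.49 in SKN and 10.4 in RKN, and NOSIP was 98.4 in SKLMS1, against 44.5 in SKUT1, 97.5 in SKN and 58.5 in RKN, so neither was lowest in SKLMS1 in the way of RCN3.

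The channel and coat genes differed among themselves. SEC61A1, the pore subunit of the translocon, was 323 in SKUT1, 83.2 in SKN, 101 in SKLMS1 and 107 in RKN, while SEC61B, its small partner, was 377 in SKUT1, 256 in SKN, 401 in SKLMS1 and 265 in RKN. The ratio of SEC61A1 to SEC61B was 0.855 in SKUT1, 0.325 in SKN, 0.253 in SKLMS1 and 0.403 in RKN. SEC61A1 shares exon sequence with RUVBL1 on the opposite strand (33.1 in SKUT1, 59.0 in SKN, 44.4 in SKLMS1 and 99.5 in RKN). SEC24D, a cargo-selecting COPII subunit whose loss causes skeletal matrix defects in fish, was 109 in SKUT1, 24.7 in SKN, 55.1 in SKLMS1 and 13.0 in RKN, an 8.37-fold span. SEC23A, the subunit it pairs with, was 133 in SKUT1, 106 in SKN, 97.0 in SKLMS1 and 50.5 in RKN.

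In pairs of lines, SKUT1 stood above each of the others, while counts for the remaining pairs were nearer to the background. SKUT1 exceeded RKN at least 2-fold for 23 of the 36 genes (22.9% of all genes), SKLMS1 for 17 (18.2%) and SKN for 15 (18.4%), and fell below RKN and SKLMS1 at least 2-fold for 0 (17.9% and 15.0%) and below SKN for 1, CHAC1 (15.1%). The number above SKLMS1 was 10 on the TPM scale and 11 on the quantile scale, and the number below SKN was 2 on both. The shares of all genes for pairs were not computed on those scales, so these counts have no background. SKN exceeded RKN for 9 (15.7%) and fell below it for 1, CREB3L1 (13.1%). SKLMS1 exceeded RKN for 6, 16.7% of the members and thus near the share of all genes (16.1%), with SDF2L1 and RCN3 below (13.1%). The median of the 36 genes was 0.52 higher in SKLMS1 than in RKN, against -0.005 for all genes. SKN and SKLMS1 differed in 5 genes, with HYOU1, CHAC1 and RCN3 higher in SKN (11.3%) and CREB3L1 and SEC24D lower in it (12.3%). As 8.33% and 5.56% of the members, these were below the shares of all genes. These pairs share lines and are not independent of each other. No gene of the 36 was highest by 4-fold in SKN (1.34% of all genes), SKLMS1 (1.33%) or RKN (1.37%), or lowest by 4-fold in SKUT1 (0.824%). The range from the highest to the lowest line was at least 4-fold for 11 of the 36 genes (26.7% of all genes) and at least 2-fold for 31 (67.2%). Its median was 1.63 against 1.31 for all genes on the log2(FPKM + 1) scale. On the TPM and quantile scales the range was at least 4-fold for 6, and the share of all genes there was not computed.

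Other genes of the same pathways, in 7 lists of 179 genes that passed the same limit, had SKUT1 and RKN at the same ends when pooled. In SKUT1 70 of them stood 2-fold or more above the rest and 6 below, beside 17.9% and 13.1% of all genes. In RKN 2 were above and 56 below, beside 11.6% and 16.6%. On the TPM scale these became 49 and 9 in SKUT1 (15.0% and 22.9% of all genes) and 7 and 35 in RKN (20.5% and 15.5%). The number below in RKN was then closer to the share of all genes. SKN had 7 above (9.97% of all genes) and 16 below (10.8%), and SKLMS1 11 above (10.7%) and 12 below (9.83%).

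Other ER chaperones were 2-fold or more higher in SKUT1 in 17 of 26 genes (17.9% of all genes) and lower in 1 (13.1%). Their median difference was 1.43. FKBP9, an ER prolyl isomerase, was 196 in SKUT1, 40.8 in SKN, 44.0 in SKLMS1 and 19.8 in RKN, and FKBP11, another, was 176 in SKUT1, 6.36 in SKN, 47.7 in SKLMS1 and 47.0 in RKN. CLGN, the testis-type calnexin relative calmegin, was the exception, with 0.177 in SKUT1, 29.7 in SKN, 0.0384 in SKLMS1 and 2.40 in RKN. Other oxidoreductases were 2-fold or more higher in SKUT1 in 8 of 18 (17.9% of all genes) and lower in 0 (13.1%). QSOX1, a sulfhydryl oxidase, was 423 in SKUT1, 58.6 in SKN, 45.1 in SKLMS1 and 44.6 in RKN, and SUMF1, which activates sulfatases, 47.1, 18.5, 19.3 and 4.86 in that order. GPX7, an ER peroxidase, was 45.1 in SKUT1, 9.86 in SKLMS1 and 13.3 in RKN and was listed at 0 in SKN, which can be a failed estimate.

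Translocation and signal processing genes were 2-fold or more higher in SKUT1 in 13 of 30 (17.9% of all genes) and lower in 0 (13.1%). SRPR, a subunit of the signal recognition particle receptor, was 135 in SKUT1, 53.8 in SKN, 16.2 in SKLMS1 and 22.2 in RKN. TRAM1, which assists the translocon, was 189 in SKUT1, 46.1 in SKN, 99.0 in SKLMS1 and 32.8 in RKN, and its relative TRAM2 was 83.3 in SKUT1, 44.5 in SKN, 30.8 in SKLMS1 and 14.7 in RKN. Degradation genes were 2-fold or more higher in SKUT1 in 7 of 25 (17.9% of all genes) and lower in 0 (13.1%). The lectin gene ERLEC1 was 110 in SKUT1, 33.4 in SKN, 31.0 in SKLMS1 and 17.9 in RKN. In the same list SEL1L3, a relative of SEL1L, was 33.1 in SKUT1, 6.15 in SKN, 1.05 in SKLMS1 and 5.35 in RKN. CRELD1, a relative of CRELD2 counted in the chaperone list as well, was 14.5 in SKUT1, 13.6 in SKN, 9.66 in SKLMS1 and 1.77 in RKN. COPII and cargo receptor genes were 2-fold or more higher in SKUT1 in 9 of 31 (17.9% of all genes) and lower in 0 (13.1%). SEC31A, the outer COPII coat, was 181 in SKUT1, 51.8 in SKN, 43.2 in SKLMS1 and 4.14 in RKN. KDELR3, which returns escaped ER proteins from the Golgi, was 268 in SKUT1, 19.0 in SKN, 93.4 in SKLMS1 and 31.5 in RKN, and MCFD2, a cargo receptor subunit, 234, 126, 32.5 and 29.0 in that order.

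Other regulators of the unfolded protein response were near the background. In SKUT1 3 of 22 stood 2-fold or more higher (17.9% of all genes) and 4 lower (13.1%), with a median of -0.0014. In RKN 1 was higher (11.6%) and 2 were lower (16.6%), with a median of 0.28. DNAJC3, an inhibitor of PERK counted in the chaperone list as well, was 30.6 in SKUT1, 7.29 in SKN, 5.22 in SKLMS1 and 4.66 in RKN. PPP1R15A, which directs the phosphatase of eIF2 alpha, was 64.6 in SKUT1, 65.0 in SKN, 20.0 in SKLMS1 and 26.9 in RKN. CREBZF, a bZIP protein, was lower in SKUT1, with 2.58 there, 8.11 in SKN, 6.23 in SKLMS1 and 10.1 in RKN.

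Other targets of ATF4 differed as a list from TRIB3 and CHAC1, neither of which was called in SKUT1. Of 29 genes, 15 stood 2-fold or more higher in SKUT1 (17.9% of all genes) and 1 lower (13.1%), with a median of 1.07. In SKN 1 was higher (9.97%) and 11 were lower (10.8%). In SKLMS1 9 were higher (10.7%) and 1 was lower (9.83%). In RKN 1 was higher (11.6%) and 12 were lower (16.6%). NUPR1, a stress-induced chromatin protein, was 305 in SKUT1, 0.181 in SKN, 42.2 in SKLMS1 and 2.47 in RKN. STC2, a secreted glycoprotein induced by ER stress, was 564 in SKUT1, 27.6 in SKN, 103.5 in SKLMS1 and 2.25 in RKN. ALDH1L2, a mitochondrial folate enzyme, was 63.8 in SKUT1, 0.189 in SKN, 13.0 in SKLMS1 and 2.25 in RKN. SKN, the line with the highest ATF4, DDIT3 and CHAC1, was thus the lowest for NUPR1 and ALDH1L2, so these genes did not rank the lines as ATF4 mRNA did.

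**Figure D4:**
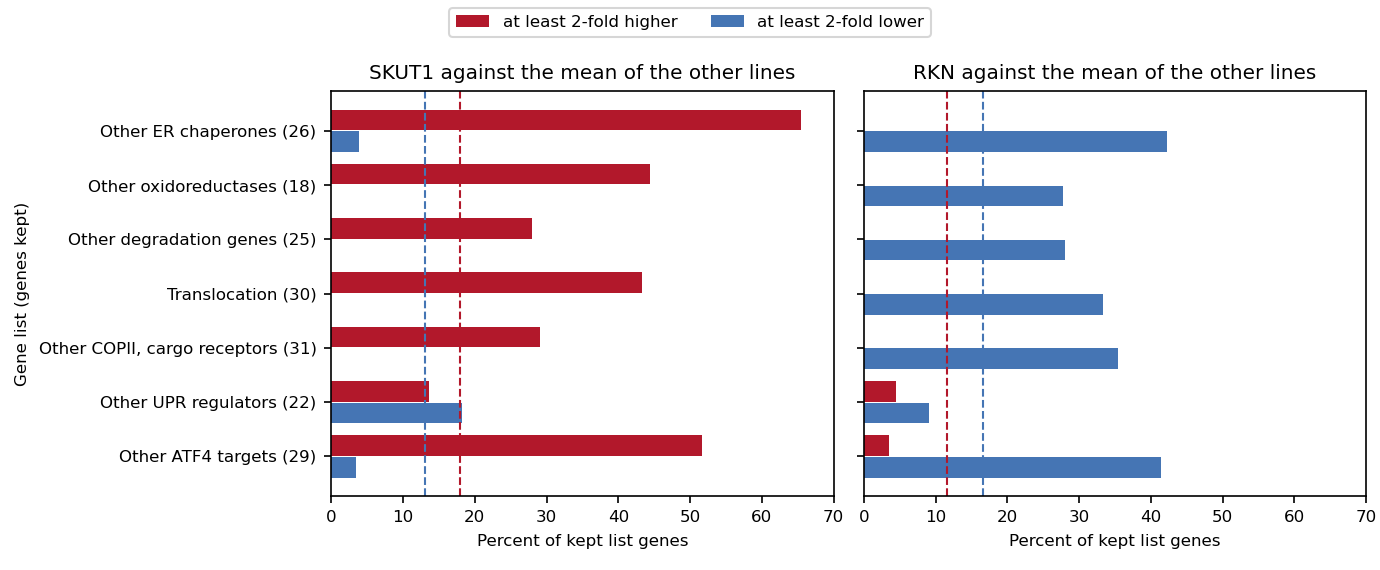
Percent of the kept genes of 7 further pathway lists that were 2-fold or more higher (red) or lower (blue) in SKUT1 (left) and RKN (right) than the average of the rest, with the number of genes in brackets and dashed lines at the percent of all 13713 genes (17.9% higher and 13.1% lower in SKUT1, 11.6% and 16.6% in RKN). The chaperone list has 17 of 26 genes higher in SKUT1, and the list of other regulators 3 of 22.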

How the data were processed

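The deposited values are FPKM per gene symbol, made by the authors with STAR and Cufflinks on hg19, per the submitters' processing notes, which give no versions. No source used here gives the gene annotation, strand setting or filters. Per the labels' protocols, libraries were stranded poly(A) and read single-end. Of 23610 rows, 28 with a symbol turned into a date number and 5 with spreadsheet errors were left out. Depth was estimated from low values of genes with 1 transcript in GENCODE 29, assuming fragments of 200 bases. Of these values, 61.2 to 63.2% came out whole to within 0.1 reads, and no counts were recovered. The size of 1 read was fitted to these same values. The 20% that evenly spread values would give is therefore not a chance rate for it. Values were compared as log2(FPKM + 1), a line against the mean of the other 3, for genes whose highest FPKM was at least 1. All members are named, and of each further list the 3 genes of widest range with an FPKM of 10 or more. Members and lists were chosen with earlier results of these data known. Alternatives were pseudocounts of 0.1 and 5, TPM, median-of-ratios and quantile scaling, other filters, the median of the other lines, and leaving out lines. The code was tested on simulated data. Python 3.11.15, numpy 2.4.6 and pandas 2.3.3 were used.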

Additional observations from a re-analysis of the deposited data

How the results depend on the processing

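With 1 library per line no test was run, so counts are compared by whether they stayed within 1.5 times and medians by whether they stayed within 0.58 on the log2 scale. Of 395 recomputed counts, medians and shares, 346 did so and 49 did not. The cause of these moves was not tested. On the TPM scale the members above the other lines in SKUT1 were 12 in place of 20, those below in RKN 7 in place of 11 and those below in SKN 2 in place of 1, members with a 4-fold range 6 in place of 11, members 4-fold above all lines in SKUT1 and 4-fold below all in RKN 0 each in place of 1, SKUT1 above SKLMS1 10 in place of 17, and SKUT1 below SKN 2 and below SKLMS1 1, while the further lists gave 7 above and 35 below in RKN. Quantile scaling gave 12 above in SKUT1 (15.2% of all genes) and 7 below in RKN (14.9%). It also gave 6 with a 4-fold range, 0 for SKUT1 4-fold highest, 11 above SKLMS1 and 2 below SKN in SKUT1. A pseudocount of 0.1 gave 5 members below in SKLMS1 and 6 list genes above in RKN. A pseudocount of 5 gave 0 members above and 0 lowest by 4-fold in RKN, 1 above in SKN and 1 below RKN in SKLMS1, and list counts of 1 above in RKN, 6 above in SKLMS1 and 2 below in SKUT1. A minimum FPKM of 10 gave 1 list gene above in RKN. With the median of the other lines, 0 members were above in RKN, 1 above and 2 below in SKN, and CREB3L1 and RCN3 in RKN turned to -0.40 and -0.040.

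Leaving out a comparison line moved the members above in SKUT1 between 15 and 22 and its median between 0.88 and 1.21, and the members below in RKN between 11 and 17 (17 without SKLMS1) and its median between -0.97 and -0.57. Members above in RKN ranged from 1 to 2, above in SKLMS1 from 0 (without SKN) to 4 (without SKUT1), above in SKN from 2 to 6 (without SKUT1) and below in SKN from 1 to 6 (without RKN). Members 4-fold highest in SKUT1 ranged from 1 to 2, and those with a 4-fold range from 3 (without SKUT1) to 10. The medians ran from -0.56 to 0.13 in SKLMS1 and from -0.25 to 0.38 in SKN, so neither line has a direction. List counts ranged from 3 to 6 above in RKN, 6 to 26 above and 9 to 24 below in SKLMS1, and 3 to 16 above and 13 to 28 below in SKN. RCN3 ran from -0.875 to 2.94 in RKN and from -0.81 to 2.997 in SKN, negative without SKLMS1, and CREB3L1 from -0.804 to 2.42 in RKN and from -0.21 to 3.02 in SKLMS1, negative without SKN. No paired analysis was possible because each line had 1 library.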

Other observations

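Collagens, the main folding load of matrix-secreting cells, were looked up after their values were seen. COL1A2 had an FPKM of 5096 in SKUT1, 0.113 in SKN, 77.5 in SKLMS1 and 98.3 in RKN, and COL3A1 had 1498 in SKUT1, 0.0894 in SKN, 1.53 in SKLMS1 and 80.6 in RKN. COL1A1 was listed at 0 in SKUT1, where its partner chain COL1A2 was highest, with 0.447 in SKN, 939 in SKLMS1 and 7.06 in RKN. FN1, the fibronectin gene, was listed at 0 in SKUT1, with 2960 in SKN, 651 in SKLMS1 and 0.266 in RKN. An exact 0 can be a failed estimate, and RPS28 was also listed at 0 in SKUT1. The zeros of COL1A1 and FN1 in SKUT1 are therefore not read as absence. The relation of collagen and FN1 levels to those of the folding genes was not tested. Within the COPII coat, the ratio of SEC23A to SEC24D was 1.22 in SKUT1, 4.30 in SKN, 1.76 in SKLMS1 and 3.87 in RKN. The ratio of CALR to CANX was 3.98 in SKUT1, 1.70 in SKN, 3.04 in SKLMS1 and 3.07 in RKN.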
